A study of Homo sapiens with 6 samples.

Results

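The comparison described here sets the KO2 column of a transcript table against its control column, NC, in MDA-MB-231 cells, an established human triple-negative breast cancer line. KO2 is 1 of 2 groups whose label gives an ARID1A knockout, the other being KO1, and the NC group is labelled as control. Total RNA was made into stranded libraries after Trizol extraction, and 6 samples are listed, 2 for each of the 3 groups. The labels name neither how the knockouts were made nor whether KO1 and KO2 are clones, pools or different guides. Genes entered the comparison by a mean over NC and KO2 of at least 1 CPM, where CPM is a count scaled to a common library size, and 14487 of 58174 gene IDs did so.

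ARID1A is the DNA-binding subunit that defines the BAF form of the SWI/SNF complexes, ATP-driven machines that slide or evict nucleosomes and so expose enhancers and promoters. PBAF carries ARID2 and PBRM1 in its place, and a non-canonical form, ncBAF, carries BRD9. ARID1A is often inactivated by truncating mutations in carcinomas, where loss of the protein can leave its messenger RNA at the normal level.

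The table holds 1 column per group, and whether a column is 1 library or both samples combined is not stated. No spread between cultures can therefore be given for any value below, and no p-value was computed. The 95% intervals in brackets hold counting error alone, for fragments without molecular identifiers. The columns were of similar depth, with 26798753 (NC), 25801499 (KO1) and 26144758 (KO2) estimated counts. Mitochondrially encoded genes took shares of 12.8% (NC), 20.5% (KO1) and 16.9% (KO2). A gene is called higher or lower where the log2 fold, computed after adding a prior count of 2, reaches 1 in size and the interval excludes equality. Levels are given per column in brackets. Where a column held 0 counts, a floor of 3 counts in that column gives a lower bound on the fold.

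Most markers of the cell line were present in all 3 columns. VIM, the mesenchymal filament vimentin, was at 3422 (NC), 4695 (KO1) and 2924 CPM (KO2), and the receptor kinase AXL was at 1509.6 (NC), 1434 (KO1) and 1092 CPM (KO2). CD44, CAV1 and MSN lay within 1.5-fold of NC in KO2. The oestrogen receptor gene ESR1 was at 0 in NC and 0.5 CPM in KO2, the progesterone receptor gene PGR was at 0 in every column, and CDH1, the E-cadherin gene, was at 0.287 (NC) and 1.07 CPM (KO2). ERBB2, GATA3 and ERBB3, which were listed as absent, were present, at 75.9 (NC), 27.9 (KO1) and 52.4 CPM (KO2), at 8.96 (NC), 15.3 (KO1) and 15.6 CPM (KO2) and at 5.19 (NC), 2.29 (KO1) and 4.28 CPM (KO2). SPARC, listed as a marker of the line, was low, at 3.69 (NC), 0.260 (KO1) and 2.32 CPM (KO2), and was called lower in KO1 against NC. Of the 10 identity genes measured, EGFR alone was called in KO2 against NC.

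The label could not be read from the level of the targeted gene. ARID1A (ENSG00000117713, chromosome 1, 26693236 to 26782104, hg38) was at 77.5 (NC), 45.5 (KO1) and 83.9 CPM (KO2). The column labelled KO2 was thus 1.08-fold higher (1.02 to 1.15) than NC, and the column labelled KO1 was 1.70-fold lower (1.58 to 1.84). Its estimated transcripts differed more than its total. ARID1A-212 held 65.2% (NC), 0.476% (KO1) and 4.68% (KO2) of the gene's counts, while ARID1A-201, annotated as protein-coding like it, held 9.06%, 64.8% and 53.2% in the same order. Estimates of this kind divide fragments among overlapping transcripts and read no mutation, and the protein was not analysed here.

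Most other subunits of the complexes were called neither way. Of 27 measured SWI/SNF genes, 2 were called higher in KO2, 2 lower and 23 neither, beside 10.7% of all measured genes called higher and 10.4% called lower. PHF10, a PBAF subunit, was at 33 (NC), 60.2 (KO1) and 128 CPM (KO2), and SMARCD1, a core subunit shared by the complexes, was at 38.3 (NC), 51 (KO1) and 104 CPM (KO2). SMARCD3, a paralogue of SMARCD1, was at 27.7 (NC), 5.80 (KO1) and 10.2 CPM (KO2). DPF1, a BAF subunit known from neurons, was at 13.3 (NC) and 6.07 CPM (KO2), a call that was lost (log2 fold -0.82) when a trend of log2 fold on transcript length and GC content was removed. ARID1B, the paralogue that can take the place of ARID1A, was at 16.8 (NC) and 29.3 CPM (KO2), 1.74-fold higher (1.55 to 1.95) and under the size asked. The ATPase genes SMARCA4 and SMARCA2 were called neither way. In bulk RNA, a difference in how many cells express a gene and a difference in RNA per cell cannot be told apart, here or for any gene below.

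Over all measured genes, 3060 or 21.1% were called between KO2 and NC, 1554 of them higher and 1506 lower. These are 10.7% and 10.4% of the measured genes, the shares beside which every list count below is to be read. A list near these shares was called about as often as genes at large. In every list, a gene below 1 CPM in 1 column could enter through the other column alone, which links its entry to its call. The median log2 fold was -0.016, 56.2% of the genes lay within 1.5-fold of NC, and 806 were at least 4-fold apart. KO1 lay farther from the same NC column, with 32.9% of genes called, 15.2% higher and 17.8% lower, and 45.0% within 1.5-fold. KO2 and KO1 were not near copies of each other either, since 26.0% of genes were called between these columns of the same labelled genotype. Protein-coding genes were called in 20.3% of cases, against 31.5% of long intergenic and 25.5% of antisense RNAs. The threshold cuts a continuous range, with 607 genes at a log2 fold of 0.9 to 1 in size and 483 at 1 to 1.1.

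**Figure D1:**
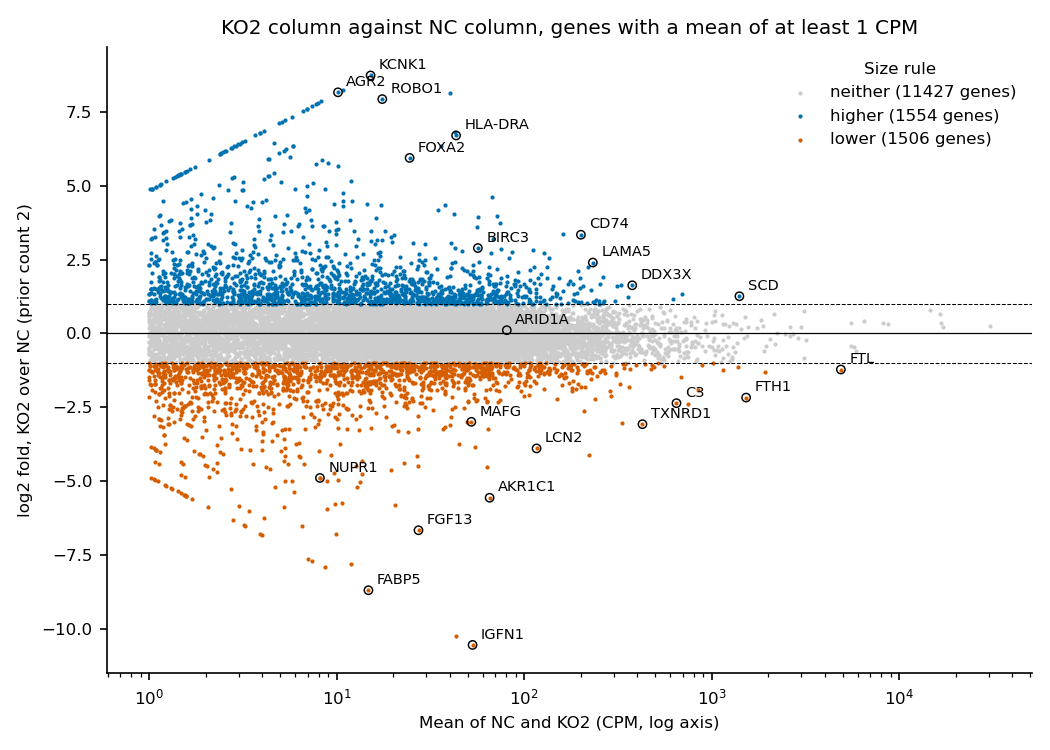
Log2 fold of KO2 over NC (y axis, prior count 2) against the mean of both columns in CPM (log x axis), 1 point per measured gene, with called genes in colour and dashed lines at a log2 fold of 1 and -1. The 1554 higher and 1506 lower genes spread over the whole range of levels, ARID1A lies near 0, and the slanted rows at the left edges are genes with 0 counts in 1 column.

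Among genes at 5 CPM or more, the highest folds belonged to genes that were silent or nearly so in NC. KCNK1, a two-pore potassium channel, was at 0 (NC), 21.4 (KO1) and 30.3 CPM (KO2), at least 282-fold higher in KO2 than in NC. ROBO1, the receptor of the guidance cue SLIT2, was at 0.0716 (NC), 7.70 (KO1) and 34.9 CPM (KO2), 487-fold higher (135 to 4029). AGR2, a protein disulfide isomerase of mucus-secreting cells, was at 0 (NC), 4.07 (KO1) and 20.3 CPM (KO2), and DSC2, a desmosomal cadherin, was at 0 (NC), 3.29 (KO1) and 15.5 CPM (KO2). Both had 0 counts in NC, an intermediate level in KO1 and their highest level in KO2. MIR3142HG, the host RNA of the microRNA miR-146a, had 0 counts in NC and in KO1 and 21.5 CPM in KO2. AFF3, CLEC2B, FBXL7, RAB38, GSPT2, TSPYL5 and ADIRF also had 0 counts in NC, and AFAP1-AS1 was at 0.215 (NC) and 79.8 CPM (KO2). In all, 56 genes called higher had 0 counts in NC. Of the 15 highest, the read-through genes FAM47E-STBD1 and INO80B-WBP1 lost their calls when summed with the genes whose exons they share, their log2 folds going from 7.60 to 0.53 and from 7.33 to 0.91.

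The lowest folds were of genes lost or nearly lost from the KO2 column. IGFN1, an immunoglobulin-like and fibronectin-domain gene, was at 106 (NC), 0.173 (KO1) and 0 CPM (KO2), at least 992-fold lower in KO2. CYP24A1, the hydroxylase that inactivates vitamin D, was at 17.5 (NC), 0 (KO1) and 0.214 CPM (KO2), 81.6-fold lower (37.2 to 224). ADORA2A, an adenosine receptor, was at 40.2 (NC), 0 (KO1) and 0.643 CPM (KO2), and NOS3, the endothelial nitric oxide synthase, was at 21.1 (NC), 0.865 (KO1) and 0.321 CPM (KO2). Each of these was near 0 in both columns labelled knockout. THBS2, a matricellular thrombospondin, was at 25.8 (NC) and 0.714 CPM (KO2), and FGF13, a homologous factor that binds sodium channels, was at 54.1 (NC) and 0.464 CPM (KO2). FABP5 and CCDC3 had 0 counts in KO2, as did 28 of the genes called lower in all. IGHV3-15, LINC00942, CD33, MAGEB2, AKR1C1, LRRC15 and EEF1A2 complete the 15 lowest. ADORA2A shares exons with a read-through gene, and with the 2 summed its log2 fold went from -5.82 to -3.02.

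By amount rather than fold, SCD had the largest gain in CPM among called genes outside the mitochondrial genome. It encodes the desaturase that makes oleate, and it was at 828 (NC), 761 (KO1) and 1979.9 CPM (KO2), 2.39-fold higher (2.35 to 2.43) in KO2 than in NC. PLP2 was at 393 (NC) and 989 CPM (KO2), and NT5E, the ectoenzyme CD73 that makes adenosine, was at 384 (NC) and 865 CPM (KO2). DDX3X, an RNA helicase of translation, was at 184 (NC), 84.4 (KO1) and 569 CPM (KO2), so that KO2 was the highest and KO1 the lowest column. LAMA5, CDCP1, CD74 and SLC38A2 complete the 8 largest gains of called genes. GAPDH, a glycolytic enzyme, gained more CPM than SCD, at 4811 (NC) and 6205 CPM (KO2), but was under the size asked. The largest losses of called genes were of very abundant messenger RNAs. FTL and FTH1, the ferritin light and heavy chains that store iron, were at 6827 (NC), 6351 (KO1) and 2931 CPM (KO2) and at 2494 (NC), 1721 (KO1) and 555 CPM (KO2). TPM4, a tropomyosin of actin filaments, was at 1327 (NC), 1071 (KO1) and 354 CPM (KO2), and C3, the central complement component, was at 1084 (NC), 137 (KO1) and 212 CPM (KO2). RPL12, RPL7A, EEF1G and AKR1B1 were the other 4. With the length and GC trend removed, NT5E (log2 fold 0.98), FTL (-0.90), RPL12 (-0.98) and RPL7A (-0.81) were no longer called.

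**Figure D2:**
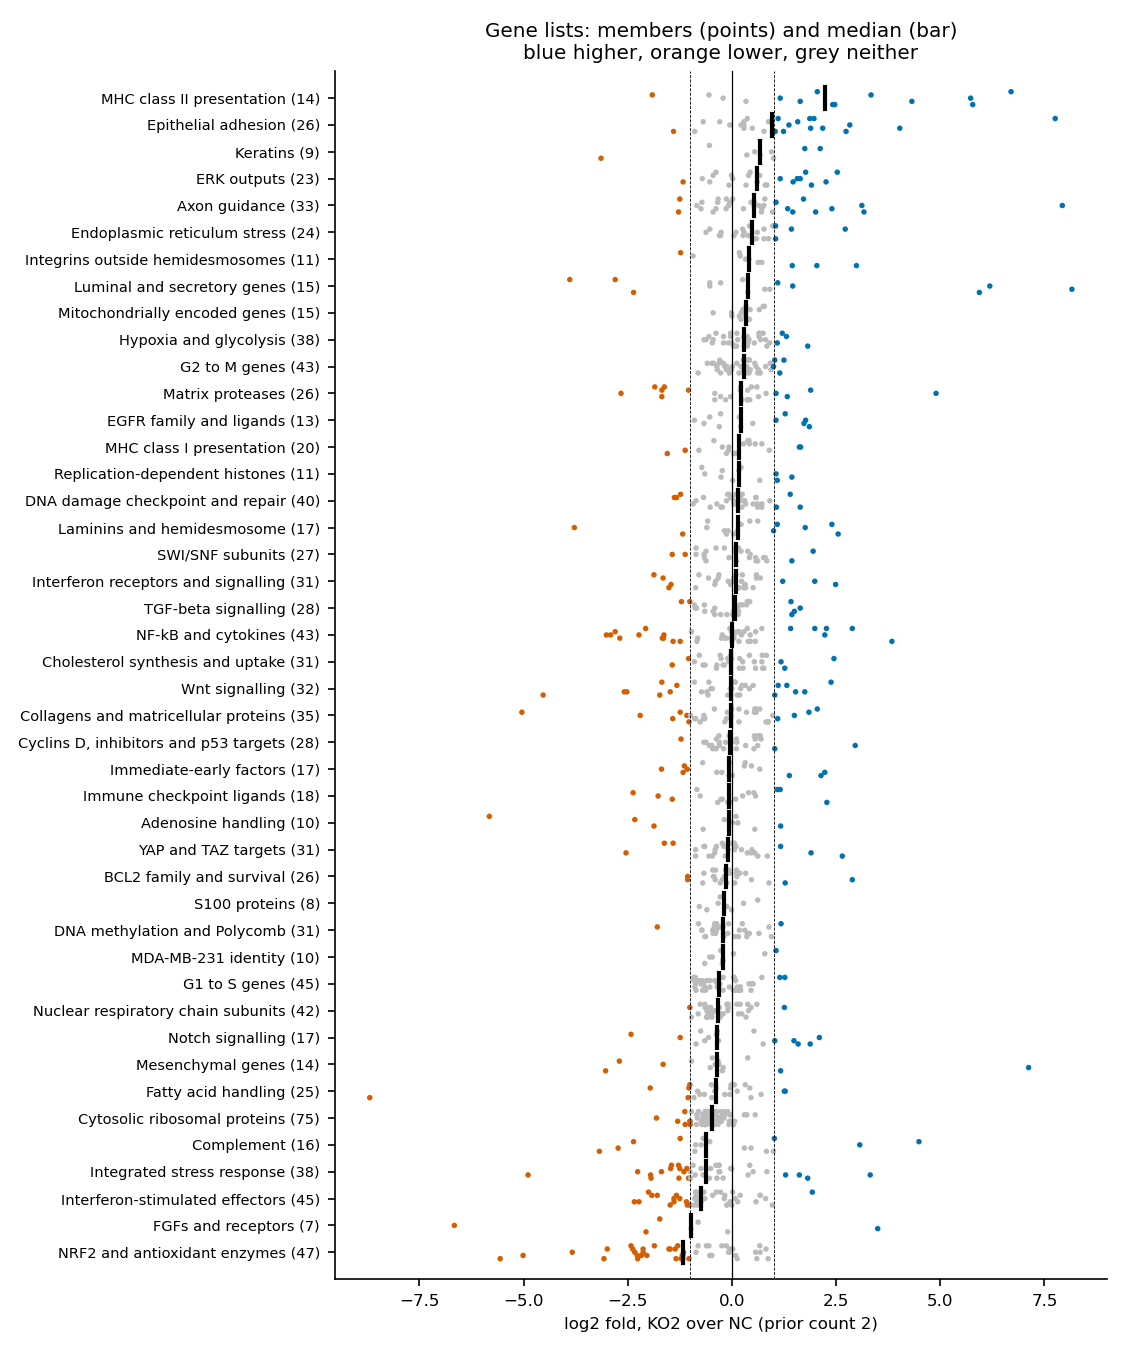
Log2 fold of KO2 over NC (x axis, prior count 2) for the members of each gene list with at least 7 measured members (y axis, number measured in brackets), 1 point per gene with the list's median as a black bar. MHC class II presentation has the highest median, 2.24, and NRF2 and antioxidant enzymes the lowest, -1.17, while the median of all measured genes is -0.016. Several MHC class II genes reached the minimum mean through KO2 alone.

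Genes of MHC class II presentation were higher in KO2. MHC class II molecules are heterodimers that show peptides from endocytosed proteins to helper T cells, and outside professional antigen-presenting cells their genes depend on the transactivator CIITA, which acts through factors bound to X and Y box elements. Of 14 measured genes, 10 were called higher, 1 lower and 3 neither, beside 10.7% and 10.4% of all measured genes called higher and lower. Their median log2 fold was 2.24. HLA-DRA, HLA-DRB1, HLA-DPA1, HLA-DPB1 and HLA-DOB were below 1 CPM in NC and reached the minimum mean through KO2 alone. Their entry and their call are therefore linked, and the count and the median include them. CIITA was at 5.02 (NC), 14.7 (KO1) and 28 CPM (KO2), 5.59-fold higher (4.66 to 6.74) in KO2 than in NC, and so highest in KO2. The chain genes started close to 0 in NC. HLA-DPA1 was at 0.967 (NC), 16.7 (KO1) and 20.7 CPM (KO2), HLA-DPB1 was at 0.215 (NC), 9 (KO1) and 15.2 CPM (KO2), and HLA-DRB1 was at 0.251 (NC), 17.9 (KO1) and 17.6 CPM (KO2). HLA-DRA was 114-fold higher (74.5 to 185).

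Genes of the loading machinery differed the same way at lower folds. CD74, the invariant chain that guards the peptide groove, was at 35.9 (NC), 471 (KO1) and 365 CPM (KO2), 10.2-fold higher (9.53 to 10.9) in KO2. HLA-DMA and HLA-DMB, which exchange the invariant chain peptide for antigen, were 4.19-fold higher and 5.59-fold higher, and CTSS, the protease that trims the invariant chain, was at 22.1 (NC) and 49.5 CPM (KO2), a call that was lost with the length and GC trend removed. RFX5, RFXAP and RFXANK, which form the X box factor, were called neither way, at folds of 1.46 or less. IFI30, a lysosomal thiol reductase, was the member called lower, at 54.2 (NC) and 14.4 CPM (KO2), but summed with a read-through gene that shares its exons its log2 fold went from -1.91 to -0.51 and it was not called. KO1 was called higher at 9 of the 14 genes and lower at 2, beside 15.2% and 17.8% of all genes in that comparison, which shares the NC column.

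Leukocyte markers were set beside this list, since leukocytes carry MHC class II. Of 22 such markers, 6 were measured and 2 of these were called lower, LCP1 at 593 (NC) and 71.8 CPM (KO2) and CD33 at 12.9 (NC) and 0.0714 CPM (KO2). The pan-leukocyte gene PTPRC was at 0 in NC and 0.143 CPM in KO2, and MS4A1, CD79B, TYROBP and SPI1 were at 0 in both. CD68, at 44.4 (NC) and 50.8 CPM (KO2), CD14, at 5.84 (NC) and 5.71 CPM (KO2), CORO1A and CSF1R were measured and called neither way. LYZ, below the minimum, was at 0 (NC) and 0.535 CPM (KO2). The summed level of the 22 markers was 666 CPM in NC and 138 CPM in KO2, a difference made mostly by LCP1.

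The promoters of HLA-DRB1 and HLA-DMA are printed because they hold the letters of the Y box, an element known from MHC class II promoters. Sequences are RefSeq's, on GRCh38.p14, and cover the 250 bases before the start, 5′ to 3′ on the strand of the gene, with the match in capitals. HLA-DRB1 lies at chr6:32589849-32590098 on the minus strand, with the match beginning 49 bases before the start, and HLA-DMA lies at chr6:32953098-32953347 on the minus strand, with the match beginning 82 bases before it.
HLA-DRB1: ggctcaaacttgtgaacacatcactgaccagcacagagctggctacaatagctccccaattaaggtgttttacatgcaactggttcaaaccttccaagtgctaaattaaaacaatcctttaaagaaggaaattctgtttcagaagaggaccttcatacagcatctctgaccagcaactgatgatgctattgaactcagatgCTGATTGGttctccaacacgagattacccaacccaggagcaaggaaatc
HLA-DMA: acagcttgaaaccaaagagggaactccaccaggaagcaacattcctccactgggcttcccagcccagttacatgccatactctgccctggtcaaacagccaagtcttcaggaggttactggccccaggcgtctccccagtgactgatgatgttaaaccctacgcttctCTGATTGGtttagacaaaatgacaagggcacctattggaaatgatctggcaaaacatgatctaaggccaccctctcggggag
The Y box letters CTGATTGG, searched on both strands, were in 3 of the 11 list promoters held (HLA-DMA, HLA-DRB1 and RFX5), against 5.42% of the promoters of all measured genes and 4% of all promoters. The X box core GCAACAG was in 0 of the 11, against 2.61% and 3.39%. The search asked for these exact letters and for no other form of the box, so 0 matches do not mean that the X box is absent. A match is a string of letters and not a measured site.

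MHC class I genes were called about as often as all measured genes. Of 20 measured genes 2 were called higher, 2 lower and 16 neither, beside 10.7% and 10.4% of all measured genes called higher and lower. Their median log2 fold was 0.18. B2M, the light chain of every class I molecule, was at 339 (NC), 153 (KO1) and 116 CPM (KO2), 2.94-fold lower (2.82 to 3.06) in KO2. NLRC5, the class I counterpart of CIITA, was at 45 (NC), 11.5 (KO1) and 20.6 CPM (KO2), though its call was lost with the length and GC trend removed. HLA-C was called higher, but its exons overlap those of HLA-B, and the 2 genes summed gave a log2 fold of -0.24. ERAP2, an aminopeptidase that trims class I peptides, was at 4.16 (NC) and 13.2 CPM (KO2). TAP1, TAP2, PSMB8 and PSMB9 lay within 1.5-fold of NC.

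Nearly all called effectors of the interferon response were lower in KO2, though most effectors were not called. Type I and type II interferons act through JAK kinases and STAT factors on promoters that hold an interferon-stimulated response element (ISRE). Of 45 measured effector genes, 1 was called higher, 13 lower and 31 neither, beside 10.7% and 10.4% of all measured genes called higher and lower. Their median log2 fold was -0.74. ISG15, a ubiquitin-like modifier, was at 392 (NC), 219 (KO1) and 83.7 CPM (KO2), 4.68-fold lower (4.48 to 4.90) in KO2. DDX60, a helicase that promotes viral RNA sensing, was at 46.4 (NC), 15.1 (KO1) and 9.14 CPM (KO2), 5.08-fold lower (4.44 to 5.83). MX1, a dynamin-like antiviral GTPase, was at 50.3 (NC), 11.9 (KO1) and 13.3 CPM (KO2), and OASL, an inactive relative of the oligoadenylate synthetases, was at 122 (NC), 77.1 (KO1) and 35.3 CPM (KO2). IFIT3, IFI27, IFI35, IFI44, OAS1, OAS2, RSAD2, HERC6 and EPSTI1 were the other 9 called lower, at 2.04-fold to 4.24-fold. IFI27 was not called with the trend removed or with total counts, and OAS1, OAS2, RSAD2 and HERC6 were not called on the scale of the deposited TPM. TRIM22 was the single member called higher, at 1.18 (NC) and 4.71 CPM (KO2).

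The machinery that relays interferon was mixed. Of 31 measured genes 3 were called higher, 4 lower and 24 neither, with a median log2 fold of 0.10. JAK2, a kinase of the interferon gamma receptor, was at 4.08 (NC), 11.5 (KO1) and 16.4 CPM (KO2). STAT2, IRF1 and both chains of the interferon gamma receptor lay within 1.5-fold of NC. The RNA sensors RIGI and DHX58 were at 151 (NC) and 54.8 CPM (KO2) and at 23.1 (NC) and 7.32 CPM (KO2), and the inhibitor USP18 was at 6.31 (NC) and 1.68 CPM (KO2). IRF9 was called higher, but summed with a gene sharing its exons its log2 fold was -0.34. TLR3 was called higher and lost the call with the trend removed, and IL10RB was called lower.

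The ISG15 and DDX60 promoters are printed for the ISRE core, a GAAA repeat with any 2 bases between its copies, in capitals, which the ISG15 promoter holds as a pair of overlapping matches. ISG15 is given from chr1:1013247-1013496 on the plus strand, its matches beginning 113 and 107 bases before the start, and DDX60 from chr4:168318753-168319002 on the minus strand, its matches beginning 88 and 53 bases before. All distances are from the RefSeq start. Sequence near that start matched the beginning of a GENCODE 29 transcript for the other 5 genes printed and not for DDX60. Such a match does not fix the start to the base.
ISG15: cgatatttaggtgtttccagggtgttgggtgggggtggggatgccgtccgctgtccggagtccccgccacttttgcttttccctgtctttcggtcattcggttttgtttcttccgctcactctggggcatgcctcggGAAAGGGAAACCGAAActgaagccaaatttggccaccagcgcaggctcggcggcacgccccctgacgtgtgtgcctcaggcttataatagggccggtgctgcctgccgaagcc
DDX60: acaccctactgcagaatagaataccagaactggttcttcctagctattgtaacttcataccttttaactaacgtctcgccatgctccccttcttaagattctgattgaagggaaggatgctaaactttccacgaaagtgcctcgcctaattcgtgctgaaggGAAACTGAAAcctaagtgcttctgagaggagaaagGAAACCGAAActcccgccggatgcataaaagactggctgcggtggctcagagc
On both strands, the core was in 23 of the 38 effector promoters held, against 2.28% of the promoters of measured genes and 3.07% of all promoters. Of those 23 genes 6 were called lower, and of the 15 without the letters 5 were called lower.

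Every called NRF2 target or antioxidant enzyme was lower in KO2 than in NC. NRF2, encoded by NFE2L2, is held down by KEAP1 and, once released by oxidants, pairs with small MAF proteins on antioxidant response elements (ARE) to raise genes of quinone reduction, glutathione and thioredoxin supply, and iron storage. Of 47 measured genes, 0 were called higher, 26 lower and 21 neither in KO2, beside 10.7% and 10.4% of all measured genes. Their median log2 fold was -1.17. KO1 was called higher at 5 of the 47 and lower at 22, beside 15.2% and 17.8% of all genes in that comparison, with a median of -0.77. Removing the length and GC trend gave 3 higher and 19 lower with a median of -0.93, and CBR3, GSTP1, GSS, GPX4, SRXN1 and FTL were among the calls lost.

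Among regulators the small MAF gene MAFG stood apart, at 92.8 (NC), 93.7 (KO1) and 11.6 CPM (KO2), 7.99-fold lower (7.12 to 9) in KO2 and near the NC level in KO1. MAFG shares exons with SIRT7, and summed with it the log2 fold went from -2.99 to -1.11 and stayed called. NFE2L2 was at 53 (NC) and 58.2 CPM (KO2) and KEAP1 at 92 (NC) and 65.7 CPM (KO2), and both were called neither way.

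Of 8 quinone and carbonyl reductases, 7 were called lower. NQO1, the quinone reductase often used as an NRF2 readout, was at 469.6 (NC), 125 (KO1) and 107 CPM (KO2), 4.39-fold lower (4.22 to 4.57). The aldo-keto reductases AKR1C3, which reduces prostaglandins and steroids, and AKR1B1, aldose reductase, were at 102 (NC), 2.98 (KO1) and 7.10 CPM (KO2) and at 1252 (NC), 139 (KO1) and 241 CPM (KO2). AKR1C1, AKR1C2, AKR1B10 and CBR3 were also called lower. CBR1, the exception, was 1.77-fold higher and not called.

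Thioredoxin and glutathione genes followed in part, with 2 of 4 and 6 of 14 called lower. TXNRD1, the reductase that keeps thioredoxin active, was at 763 (NC), 323 (KO1) and 90.7 CPM (KO2), 8.41-fold lower (8.07 to 8.77). SLC7A11, the cystine importer that feeds glutathione synthesis, was at 123 (NC), 139 (KO1) and 25.7 CPM (KO2), near the NC level in KO1 and 4.79-fold lower (4.41 to 5.19) in KO2. GPX4, the peroxidase that protects membranes from lipid peroxides, was at 450.4 (NC), 371 (KO1) and 221 CPM (KO2). GSTP1, GSTM3, GSR, GSS and the sulfiredoxin SRXN1 were lower by 2.24-fold to 2.86-fold. GCLC, GCLM, GPX1 and PRDX1 were called neither way.

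All 4 haem and iron genes were called lower. FTH1 was 4.50-fold lower (4.42 to 4.57) and FTL 2.33-fold lower (2.31 to 2.35) in KO2, while KO1 lay within 1.5-fold of NC at both. HMOX1, the oxygenase that releases iron from haem, was at 55.7 (NC), 33.1 (KO1) and 20 CPM (KO2), and BLVRB, which reduces biliverdin, was at 69.8 (NC), 57.2 (KO1) and 19.2 CPM (KO2). FTH1 has many processed copies in the genome, and summed with 25 of them it was at 2556 (NC), 1759 (KO1) and 566 CPM (KO2). In the remaining roles ME1, the NADPH-making malic enzyme, was 4.12-fold lower (3.76 to 4.51), OSGIN1 was 5.07-fold lower (4.39 to 5.87) and PIR was 4.92-fold lower (3.82 to 6.42).

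The TXNRD1 and GSTP1 promoters are printed for the ARE core TGACNNNGC, in capitals. TXNRD1 is taken from chr12:104215529-104215778 on the plus strand, with the match beginning 99 bases before the start, and GSTP1 from chr11:67583562-67583811 on the plus strand, with the match beginning 66 bases before.
TXNRD1: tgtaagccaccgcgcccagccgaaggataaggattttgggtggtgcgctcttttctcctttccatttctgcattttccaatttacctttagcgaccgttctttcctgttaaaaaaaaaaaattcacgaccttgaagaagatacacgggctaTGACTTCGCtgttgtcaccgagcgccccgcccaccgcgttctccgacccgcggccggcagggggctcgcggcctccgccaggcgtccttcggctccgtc
GSTP1: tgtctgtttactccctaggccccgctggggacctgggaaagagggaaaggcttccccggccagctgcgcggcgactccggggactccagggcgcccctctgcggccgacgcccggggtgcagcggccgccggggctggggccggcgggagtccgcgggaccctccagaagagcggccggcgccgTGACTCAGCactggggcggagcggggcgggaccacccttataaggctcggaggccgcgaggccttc
The core was found on either strand in 8 of 34 NRF2-list promoters, against 12.2% of the promoters of measured genes and 11% of all promoters. Of those 8 genes 3 were called lower, as were 15 of the 26 without it.

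**Figure D3:**
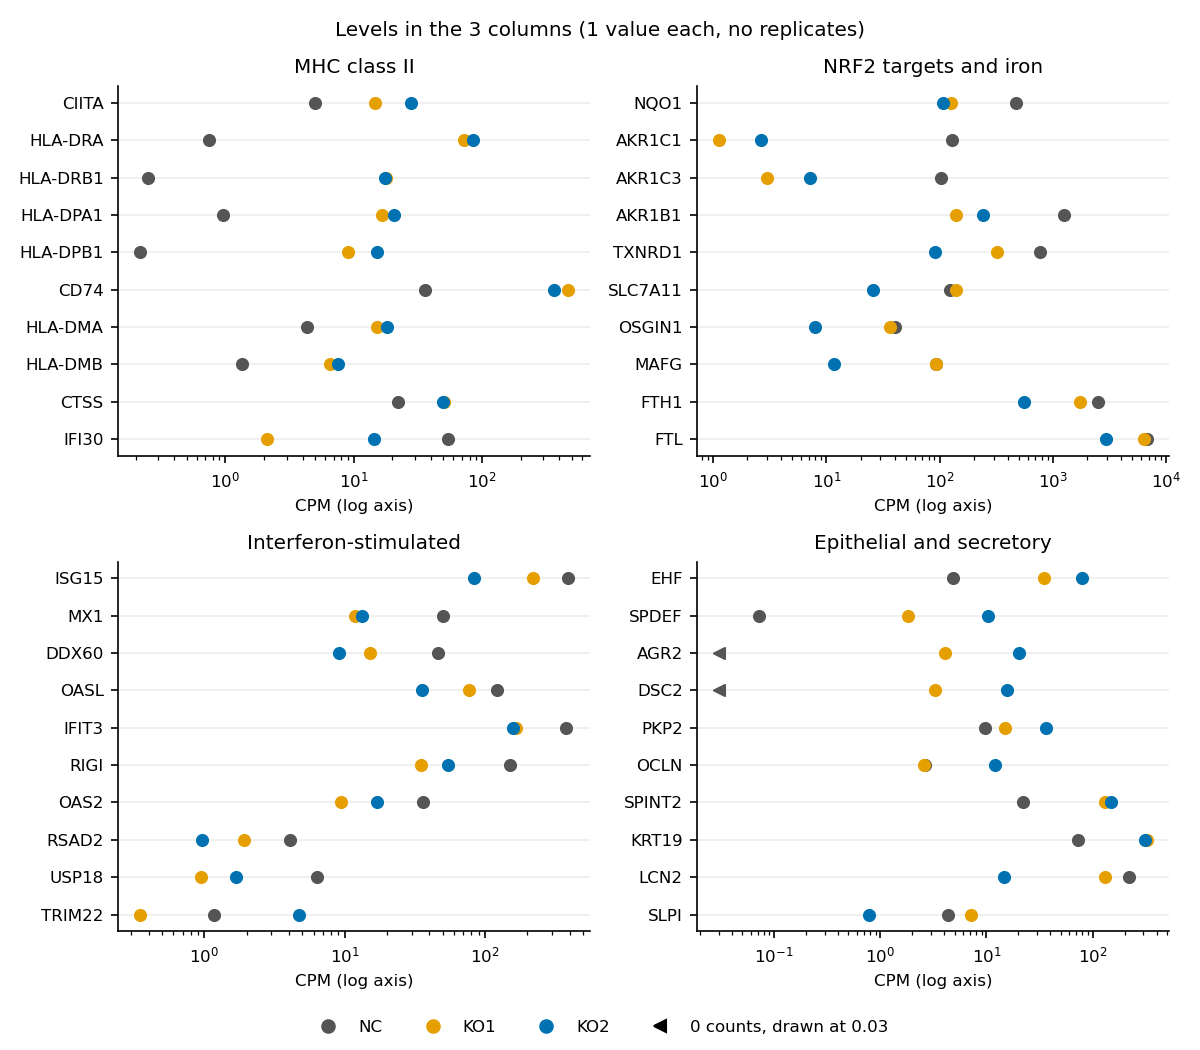
Levels in CPM (log x axis) of 10 members from each of 4 groups in NC, KO1 and KO2, 1 value per column with no replicates, the last panel joining epithelial, keratin and secretory genes, and triangles marking 0 counts. MHC class II genes other than IFI30 lie to the right of NC in both knockout columns, whereas TXNRD1, MAFG, SLC7A11, OSGIN1, FTH1 and FTL have their lowest value in KO2; the members drawn were chosen with their values known.

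Genes of the integrated stress response lay mostly below NC in KO2 and above it in KO1. In this response phosphorylation of eIF2 favours translation of ATF4, which then drives genes of amino acid import, serine and asparagine synthesis, and tRNA charging. Of 38 measured genes, 4 were called higher, 13 lower and 21 neither in KO2, beside 10.7% and 10.4% of all measured genes. Their median log2 fold was -0.62. KO1 was called higher at 26 of the same genes and lower at 0, beside 15.2% and 17.8% of all genes in that comparison. Its median was 1.45. With the trend on length and GC removed, KO2 had 4 higher and 10 lower. ATF4 itself was at 384 (NC), 966 (KO1) and 331 CPM (KO2), and TRIB3, an ATF4-induced pseudokinase, was at 79.7 (NC), 732 (KO1) and 38.7 CPM (KO2), lowest in KO2 and highest in KO1. The KO2 call of TRIB3 was lost with the trend removed.

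PSAT1 and ASNS, of serine and asparagine synthesis, showed the same order. PSAT1, the second step of serine synthesis, was at 457 (NC), 1269 (KO1) and 119 CPM (KO2), 3.84-fold lower (3.70 to 3.99) than NC in KO2 and 2.78-fold higher (2.72 to 2.84) in KO1. ASNS, asparagine synthetase, was at 131 (NC), 855 (KO1) and 68.8 CPM (KO2) and was just under the size asked in KO2. PHGDH, the first step of serine synthesis, did not, at 0 (NC), 21.9 (KO1) and 1.21 CPM (KO2), so that NC was its lowest column. SLC7A5 and SLC3A2, which form the large neutral amino acid exchanger, were at 1006 (NC), 1874 (KO1) and 362 CPM (KO2) and at 356 (NC), 1070.3 (KO1) and 130.4 CPM (KO2). NUPR1, a stress-induced chromatin protein, was at 15.8 (NC), 9.43 (KO1) and 0.464 CPM (KO2), 34.1-fold lower (19.7 to 64.6) in KO2. WARS1 and SARS1 were the tRNA synthetase genes called lower.

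The 4 members called higher in KO2 were higher still in KO1. GDF15, a TGF-beta relative secreted under stress, stood at 3.62 (NC), 542 (KO1) and 36.7 CPM (KO2), VEGFA, the angiogenic factor, at 39.1 (NC), 474 (KO1) and 139 CPM (KO2), SLC38A2, a glutamine transporter, at 153 (NC), 1222 (KO1) and 471 CPM (KO2) and VLDLR, a lipoprotein receptor, at 13.2 (NC), 115 (KO1) and 32.4 CPM (KO2). The KO2 call of VLDLR was lost (log2 fold 0.99) with the length and GC trend removed. PPP1R15A, the phosphatase subunit that ends the response, was at 203 (NC), 1888 (KO1) and 203 CPM (KO2), the same in NC and KO2 to 3 digits. No gene of endoplasmic reticulum stress was called lower, with 4 of 24 called higher, 0 lower and a median log2 fold of 0.48. DNAJB9, a co-chaperone of BiP, was at 8.24 (NC), 59.2 (KO1) and 22.3 CPM (KO2), and HSPA5, which encodes BiP, was at 886 (NC), 2921 (KO1) and 1187 CPM (KO2). DERL3 was called higher at 0.215 (NC) and 1.82 CPM (KO2), SYVN1 was called higher but reversed to a log2 fold of -0.39 when summed with genes sharing its exons, and DNAJC3 lost its call with the trend removed.

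**Figure D4:**
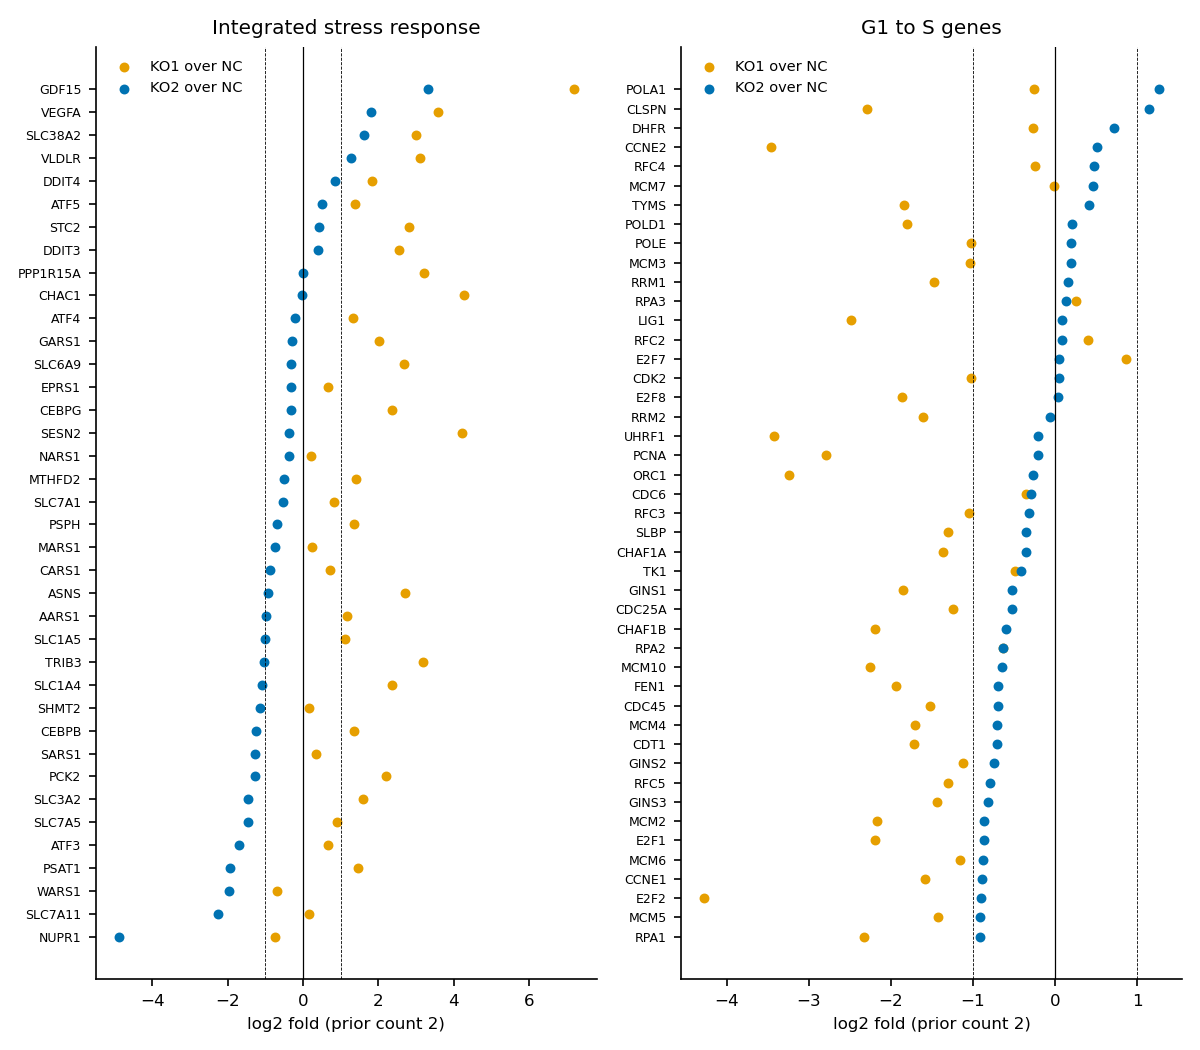
Log2 fold over NC (x axis, prior count 2) of KO2 (blue) and KO1 (orange) for the 38 measured genes of the integrated stress response (left) and the 45 measured G1 to S genes (right), ordered by KO2. Both comparisons use the same NC column; the medians are -0.62 in KO2 and 1.45 in KO1 on the left, and -0.32 and -1.47 on the right.

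Few replication genes were called in KO2. The 45 measured G1 to S genes, which license origins, build forks and supply nucleotides under E2F control, had 2 called higher, 0 lower and 43 neither, with a median log2 fold of -0.32. KO1 was called lower at 35 of them, beside 17.8% of all genes in that comparison, with a median of -1.47. PCNA, the sliding clamp, was at 259 (NC), 37.3 (KO1) and 223 CPM (KO2), MCM2, a subunit of the replicative helicase, was at 127 (NC), 28.1 (KO1) and 69.8 CPM (KO2), and E2F1 was at 171 (NC), 37 (KO1) and 93.6 CPM (KO2). These 3 genes lay below NC in KO2 and farther below it in KO1. MCM5 and RPA1, which were not called, were 1.88-fold lower (1.79 to 1.97) and 1.89-fold lower (1.81 to 1.97) in KO2, so that genes under the size asked were not all at the NC level. POLA1, the primase-associated polymerase, was at 27 (NC), 22.6 (KO1) and 65.3 CPM (KO2), and CLSPN, a checkpoint adaptor, was called higher in KO2 and lost that call with the trend removed.

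Few mitotic genes were called. Of 43 G2 to M genes 4 were called higher, 0 lower and 39 neither, with a median log2 fold of 0.28. ANLN, an actin-binding protein of the cleavage furrow, was at 211 (NC), 232 (KO1) and 502 CPM (KO2), and ECT2, the exchange factor that activates RhoA there, was at 85.5 (NC), 97.7 (KO1) and 189.9 CPM (KO2). These 2 and CENPE and FBXO5 lost their calls with the length and GC trend removed, which left 0 called. MKI67, the proliferation marker, was at 292 (NC), 82.1 (KO1) and 267 CPM (KO2). CDK4 was called lower at 172 (NC) and 73.8 CPM (KO2) (log2 fold -1.22) and lost the call in the same way, and CCND2, which encodes a partner of CDK4 and CDK6, was at 0.430 (NC), 112 (KO1) and 3.82 CPM (KO2). Of 28 measured D-type cyclin, inhibitor and p53 genes 2 were called higher, 1 lower and 25 neither, and the p53 targets CDKN1A and MDM2 were called neither way.

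Nearly all called genes of epithelial adhesion were higher in KO2. Epithelial cells are joined by tight junctions and desmosomes, and the factors ESRP2, EHF and ELF3 regulate epithelial splicing and transcription. Of 26 measured genes 13 were called higher, 1 lower and 12 neither, beside 10.7% and 10.4% of all measured genes. Their median log2 fold was 0.96. DSC2 and CDH3 were below 1 CPM in NC and reached the minimum mean through KO2 alone. The count and the median include them. KO1 was called higher at 9, beside 15.2% of all genes in that comparison, with a median of 0.26. EHF, an epithelial ETS factor, was at 4.80 (NC), 34.9 (KO1) and 79.8 CPM (KO2), 16.6-fold higher (14 to 19.9) in KO2. SPINT2, an inhibitor of membrane serine proteases, was at 22.3 (NC), 131 (KO1) and 149.8 CPM (KO2), and CDH3, P-cadherin, was at 0.716 (NC), 3.85 (KO1) and 5.53 CPM (KO2). OCLN, the tight junction protein occludin, was at 2.62 (NC), 2.55 (KO1) and 12.1 CPM (KO2), 4.61-fold higher (3.57 to 6.03) in KO2 with KO1 at the NC level. On the scale of the deposited TPM, OCLN had a log2 fold of 0.63 and was not called. PKP2, which links desmosomal cadherins to the cytoskeleton, was at 9.78 (NC), 15.1 (KO1) and 36.5 CPM (KO2), and DSP, desmoplakin, was at 51.3 (NC), 158 (KO1) and 132 CPM (KO2). EPCAM, CLDN1, F11R, JUP, ESRP2, SPINT1 and DSC2 were the others called higher. ELF3 was the member called lower, at 43.8 (NC), 8.09 (KO1) and 16.5 CPM (KO2), and CDH1 was below the minimum level for measurement.

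Keratins and luminal genes were mixed. Of 9 keratins 2 were called higher, 1 lower and 6 neither, with a median log2 fold of 0.68. KRT19, a simple epithelial keratin, was at 72.2 (NC), 328 (KO1) and 314 CPM (KO2), and KRT17, a basal keratin, was at 5.27 (NC), 6.01 (KO1) and 0.535 CPM (KO2), 9.83-fold lower (5.77 to 18) in KO2, while KO1 was not below NC. Of 15 luminal and secretory genes 5 were called higher, 3 lower and 7 neither. Among the 5, SPDEF and FOXA2 were below 1 CPM in NC and reached the minimum mean through KO2 alone. SPDEF, an ETS factor of secretory cells, was at 0.0716 (NC), 1.82 (KO1) and 10.4 CPM (KO2), FOXA2, a pioneer factor of endoderm, was at 0.716 (NC), 79.6 (KO1) and 48.2 CPM (KO2), and MUC1 was at 13.9 (NC), 16.6 (KO1) and 38.2 CPM (KO2). LCN2, the iron-carrier protein lipocalin, was at 218 (NC), 129.6 (KO1) and 14.6 CPM (KO2), 14.9-fold lower (13.5 to 16.5), and SLPI, a secreted protease inhibitor, was at 4.33 (NC), 7.22 (KO1) and 0.785 CPM (KO2). PRLR, the prolactin receptor, was at 23.3 (NC), 3.46 (KO1) and 3.28 CPM (KO2). FOXA2 was the single endoderm or liver gene called of 3 measured, the others being GATA6 at 15 (NC) and 7.60 CPM (KO2) and SERPINA1 at 52.9 (NC) and 36.3 CPM (KO2). Below the minimum for measurement, FOXA1 was at 0 (NC), 2.03 (KO1) and 1.07 CPM (KO2) and AFP at 1.11 (NC), 0.130 (KO1) and 0 CPM (KO2), and SOX17, GATA4, TTR and APOB were at 0 in every column.

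Mesenchymal genes showed no common direction. Of 14 measured, 2 were called higher, 3 lower and 9 neither, with a median log2 fold of -0.36. SNAI1, a repressor of E-cadherin, was at 8.10 (NC), 1.38 (KO1) and 0.928 CPM (KO2), 8.72-fold lower (5.80 to 13.6), and TAGLN, transgelin of contractile fibres, was at 28.2 (NC), 7.09 (KO1) and 4.28 CPM (KO2). CDH11, a mesenchymal cadherin, had 0 counts in NC and was at 3.29 CPM in KO1 and 9.85 CPM in KO2. ZEB1, ZEB2 and SNAI2 were called neither way. Fibroblast markers were few, with COL1A1 and PDGFRB measured of 10, COL1A1 at 19.8 (NC) and 36.3 CPM (KO2) and PDGFRB at 10.9 (NC) and 2.39 CPM (KO2). Of 3 endothelial markers measured, ESAM, at 31.2 (NC) and 77.7 CPM (KO2), and KDR, which lost its call with the trend removed, were called higher, PECAM1 was at 3.37 (NC), 0.606 (KO1) and 5.93 CPM (KO2) and not called in KO2, and CDH5, TIE1, VWF and ERG were at or below 0.214 CPM in NC and KO2.

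The basement membrane genes split by chain. Laminins are heterotrimers that bind hemidesmosomes through the integrin made of ITGA6 and ITGB4. Of 17 measured laminin and hemidesmosome genes 5 were called higher, 2 lower and 10 neither. LAMA5 was at 74 (NC), 207 (KO1) and 390.2 CPM (KO2), 5.27-fold higher (5.03 to 5.53), ITGB4 was at 24 (NC), 96.9 (KO1) and 141 CPM (KO2), 5.88-fold higher (5.42 to 6.39), and DST, the plakin that ties hemidesmosomes to keratin, was at 79.5 (NC), 145 (KO1) and 269.6 CPM (KO2). LAMA4 was at 4.33 (NC), 0 (KO1) and 0.250 CPM (KO2), 17.3-fold lower (8.17 to 44.1). LAMB3, highest in KO1, was at 254 (NC), 1078 (KO1) and 224 CPM (KO2) and not called in KO2.

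Collagens and matricellular genes had 4 higher, 6 lower and 25 neither of 35, beside 10.7% and 10.4% of all measured genes. COL4A1 and COL4A2, the paired chains of basement membrane collagen, were at 152 (NC), 44.5 (KO1) and 56.6 CPM (KO2) and at 539 (NC), 172 (KO1) and 254 CPM (KO2), and COL6A2 was at 102 (NC) and 22.2 CPM (KO2). COL13A1, a transmembrane collagen, was at 29.8 (NC), 28.6 (KO1) and 84.5 CPM (KO2), and SPOCK1, a proteoglycan, was at 0.573 (NC) and 2.61 CPM (KO2). Among 11 other integrins 3 were called higher, ITGA10, ITGB8 and ITGA1, and 1 lower, ITGA7, with ITGA1 losing its call (log2 fold 0.58) once summed with genes sharing its exons. Of 26 matrix proteases and their inhibitors 4 were called higher, 6 lower and 16 neither. TIMP3, an inhibitor bound to matrix, was at 83.9 (NC), 48 (KO1) and 311 CPM (KO2), and SERPINE2, an inhibitor of thrombin and urokinase, was at 58.6 (NC), 30.3 (KO1) and 18.3 CPM (KO2).

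Ligands of EGFR and genes of ERK feedback were among those called higher. Ligands of EGFR activate the RAS and ERK cascade, and ERK induces its own inhibitors, the DUSP phosphatases and the SPRY and SPRED proteins. Of 13 EGFR family genes 5 were called higher, 0 lower and 8 neither, with a median log2 fold of 0.21, or -0.02 with the length and GC trend removed. TGFA and HBEGF, EGFR ligands, were at 37.3 (NC), 76.7 (KO1) and 124 CPM (KO2) and at 45.7 (NC), 184 (KO1) and 111 CPM (KO2), and AREG was at 4.98 (NC), 97.7 (KO1) and 17.2 CPM (KO2). EGFR was at 152 (NC), 427 (KO1) and 317 CPM (KO2), 2.09-fold higher (2.01 to 2.17), and the call was lost with the trend on length and GC removed. ERRFI1, an inhibitor induced by EGFR, was at 66.1 (NC), 1133 (KO1) and 239.9 CPM (KO2).

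Of 11 ERK feedback genes 6 were called higher and 0 lower in KO2, beside 10.7% and 10.4% of all measured genes. DUSP4, a nuclear ERK phosphatase, was at 110.2 (NC), 156 (KO1) and 416 CPM (KO2), DUSP6, its cytoplasmic relative, was at 23.3 (NC), 124 (KO1) and 72.9 CPM (KO2), and SPRY4 was at 45.5 (NC), 428 (KO1) and 219 CPM (KO2). SPRY1 and SPRED3 were highest in KO2 and lowest in KO1, SPRY1 at 6.77 (NC), 2.90 (KO1) and 23.3 CPM (KO2) and SPRED3 at 2.11 (NC), 1.51 (KO1) and 12.6 CPM (KO2). Over all 23 ERK outputs 8 were called higher, 1 lower and 14 neither, with a median log2 fold of 0.61. FOSL1, the AP-1 subunit FRA1, was the member called lower, at 469 (NC), 612 (KO1) and 208 CPM (KO2), and lost the call with the trend removed. Immediate-early factors had 3 higher, 4 lower and 10 neither of 17, among them EGR1 at 5.80 (NC), 169 (KO1) and 27.5 CPM (KO2) and NR4A2 at 5.09 (NC), 4.63 (KO1) and 22.7 CPM (KO2). Of 7 measured FGFs and receptors 1 was called higher, FGF5 at 1.54 (NC), 16.3 (KO1) and 18.2 CPM (KO2), and 3 lower.

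Lists of other signalling pathways, which hold ligands, receptors and regulators as well as targets, had calls in both directions. YAP and TAZ genes had 3 higher, 3 lower and 25 neither of 31, beside 10.7% and 10.4% of all measured genes. Their median log2 fold was -0.09. The targets CCN1 and CCN2 were 1.82-fold lower and 1.59-fold lower and not called, while NF2, an upstream inhibitor known as merlin, was at 14.4 (NC), 17.1 (KO1) and 2.43 CPM (KO2), 5.95-fold lower (4.59 to 7.81). TGF-beta genes had 4 higher, 2 lower and 22 neither of 28. BMP4, a bone morphogenetic protein, was at 58 (NC), 14.1 (KO1) and 155 CPM (KO2), and TGFBR1, the type I receptor, was at 27.2 (NC), 49.1 (KO1) and 74 CPM (KO2). Notch genes had 5 higher, 2 lower and 10 neither of 17, with the ligand JAG1 at 34.7 (NC), 269 (KO1) and 104 CPM (KO2) and the coactivator MAML2 at 13.2 (NC), 33.7 (KO1) and 49 CPM (KO2).

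Wnt genes had 6 higher, 7 lower and 19 neither of 32, beside 10.7% and 10.4% of all measured genes. The ligand WNT5A, which acts mainly outside the beta-catenin route, was at 55.7 (NC), 3.59 (KO1) and 9.25 CPM (KO2), 6.03-fold lower (5.28 to 6.90). WNT7B was at 31.4 (NC), 34.6 (KO1) and 78.6 CPM (KO2), and the receptor FZD1 was at 26.3 (NC), 21.3 (KO1) and 88.7 CPM (KO2). AXIN2, a feedback target of beta-catenin, was at 6.38 (NC), 1.60 (KO1) and 13.8 CPM (KO2), a call not made on the TPM scale. APCDD1L and KREMEN1, grouped with the Wnt inhibitors, were at 122 (NC) and 5.21 CPM (KO2) and at 26.3 (NC) and 4.53 CPM (KO2).

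NF-kB genes and cytokines had 6 higher, 11 lower and 26 neither of 43, beside 10.7% and 10.4% of all measured genes. Their median log2 fold was 0.00. BIRC3, an inhibitor of apoptosis induced by NF-kB, was at 13.4 (NC), 32.3 (KO1) and 99.7 CPM (KO2), 7.42-fold higher (6.66 to 8.29). RELA, the main activating subunit of NF-kB, was at 246 (NC), 88.9 (KO1) and 52.4 CPM (KO2), 4.70-fold lower (4.44 to 4.97). IL1A and IL1B, the interleukin 1 cytokines, were at 48 (NC), 186 (KO1) and 15.3 CPM (KO2) and at 107 (NC), 142 (KO1) and 34.7 CPM (KO2), lowest in KO2 and highest in KO1. The chemokine CCL5 was at 17.7 (NC), 3.63 (KO1) and 2.28 CPM (KO2), and the receptors IL4R and IL7R were at 47.3 (NC), 24.5 (KO1) and 6.75 CPM (KO2) and at 88.2 (NC), 1.08 (KO1) and 10.9 CPM (KO2). CSF2, a growth factor for myeloid cells, was at 14.2 (NC), 79.1 (KO1) and 66.9 CPM (KO2), IL11 was at 26.6 (NC), 47 (KO1) and 105 CPM (KO2), and PTGS2, the inducible cyclooxygenase, was at 1.47 (NC), 74.7 (KO1) and 22 CPM (KO2). REL was called higher and lost the call when summed with a gene sharing its exons.

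Complement genes had 3 higher, 4 lower and 9 neither of 16, beside 10.7% and 10.4% of all measured genes. C3 was 5.12-fold lower (4.98 to 5.27) in KO2, and CLU, clusterin, which blocks the membrane attack complex, was at 67.7 (NC), 11.1 (KO1) and 7.39 CPM (KO2). The calls of C2 and C4A (higher) and C1S (lower) ended when each was summed with genes sharing its exons, C2 at a log2 fold of -0.63 and C1S at -0.43.

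Lipid genes differed one by one. Cholesterol synthesis and uptake had 3 higher, 2 lower and 26 neither of 31, beside 10.7% and 10.4% of all measured genes. The median log2 fold was -0.01. KO1 had 13 lower, beside 17.8% of all genes in that comparison, and a median of -0.82. HMGCS1, the synthase that makes HMG-CoA, was at 139 (NC), 32.4 (KO1) and 114 CPM (KO2). ABCG1, a sterol exporter, was at 1 (NC), 20 (KO1) and 5.82 CPM (KO2), and SCARB1, the HDL receptor, was at 89.2 (NC), 45.3 (KO1) and 33.1 CPM (KO2). Of 25 fatty acid genes 2 were called higher, SCD and SLC27A3, and 5 lower, FABP5, FADS3, SLC27A4, CPT1C and DGAT2. SLC27A4 and CPT1C lost their calls with the length and GC trend removed. SLC27A3 reversed to a log2 fold of -0.42 when summed with INTS3, whose exons it shares. FASN, fatty acid synthase, was at 421 (NC), 168 (KO1) and 685 CPM (KO2) and under the size asked. Hypoxia and glycolysis genes had 4 higher, 0 lower and 34 neither of 38, among them HK2, the inducible hexokinase, at 32.3 (NC), 110.4 (KO1) and 80.4 CPM (KO2) and BNIP3, a mitophagy receptor, at 119 (NC), 155 (KO1) and 253 CPM (KO2).

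Most genes of cytosolic ribosomal proteins were not called, and those called were lower. Of 75 measured, 0 were called higher, 6 lower and 69 neither, with a median log2 fold of -0.47, against 0.26 in KO1. RPL12 was at 2743 (NC), 2505 (KO1) and 1115 CPM (KO2), RPL7A at 1885 (NC), 684 (KO1) and 869 CPM (KO2) and RPL9 at 565 (NC), 289 (KO1) and 161 CPM (KO2). Such genes have many processed copies, and RPL9 with 19 copies was at 1093 (NC) and 321 CPM (KO2). They are also short, and over all measured genes the median log2 fold went from -0.25 in the shortest of 5 equal groups (median length 995 bases) to 0.22 in the longest (6074 bases). GC content ran the other way, from 0.34 in the group with a median of 39% GC to -0.30 in that with 61.8%. With that trend removed 2 ribosomal protein genes were called lower, and the median was -0.33. Of the 15 mitochondrially encoded genes 0 were called, with a median of 0.33, and of 42 nuclear respiratory chain subunits 1 was called higher and 1 lower, NDUFA5 and COX5B, with a median of -0.33. Both of these calls were lost with the trend removed.

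A set of genes set KO2 apart from both other columns. With KO1 within 1.5-fold of NC, 239 genes (1.65%) were called higher in KO2 than in each of NC and KO1, and 238 (1.64%) lower. Without the limit on KO1 503 (3.47%) were higher and 358 (2.47%) lower. ASXL2, a Polycomb-associated protein of the BAP1 deubiquitinase, was at 3.58 (NC), 4.76 (KO1) and 65.7 CPM (KO2), 18.3-fold higher (15 to 22.6) than NC. KLHL4, an adaptor of ubiquitin ligases, was at 1.25 (NC), 1.08 (KO1) and 9.71 CPM (KO2), TENT5C, a poly(A) polymerase, was at 1.83 (NC), 1.64 (KO1) and 12.6 CPM (KO2), and SLC1A1, a glutamate transporter, was at 2.01 (NC), 2.77 (KO1) and 10.8 CPM (KO2). MIR3142HG, INO80B-WBP1, SPRED3 and MANEA complete the 8 highest.

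The 8 lowest of that kind held several regulators. ALPK2, an atypical kinase, was at 18.7 (NC), 19.1 (KO1) and 0.643 CPM (KO2), 29.1-fold lower (18.2 to 49.5). HAUS2, a subunit of the augmin complex of the spindle, was at 43.5 (NC), 29.2 (KO1) and 4.21 CPM (KO2), and RALB, a RAS-like GTPase, was at 71.3 (NC), 52.7 (KO1) and 9.96 CPM (KO2). RNF4, a ligase that recognises SUMO chains, was at 116 (NC), 90.9 (KO1) and 12.1 CPM (KO2), and FBXO34 was at 36.2 (NC), 36.2 (KO1) and 4.14 CPM (KO2). RNF4 shares exons with a neighbouring gene, and summed with it the log2 fold went from -3.25 to -1.99. LINC00963, MAFG and NF2 were the other 3.

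Differences between KO2 and NC followed chromosome position in part. The median log2 fold was highest on chromosome X, at 0.49, with 117 of 476 genes called higher and 33 lower, and was 0.35 on chromosome 7. It was lowest on chromosome 20, at -0.46, with 22 higher and 73 lower of 384, and was -0.33 on chromosome 22. KO1 against the same NC column had similar medians, at 0.38 (X), 0.32 (7), -0.46 (20) and -0.42 (22). Between KO2 and KO1 the medians of these chromosomes lay from 0.02 to 0.18. Over 277 windows of neighbouring measured genes, 50 in each with the remainder joined to the last, the medians had an SD of 0.37, with 28 windows at 0.5 or more and 21 at -0.5 or less.

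The window with the lowest median, -0.94, ran on chromosome 11 from 61299451 to 62855914 (DDB1 to SNORD22), with 1 gene called higher and 23 lower of 50. FTH1 and EEF1G lie in it. A window on chromosome 8, from 406428 to 19396218 (FBXO25 to SH2D4A), had 0 higher and 22 lower. On chromosome 9, from 127907886 to 129811281 (ST6GALNAC4 to TOR1B), 0 were higher and 18 lower, with a median of -0.90. The highest median, 0.93, was on chromosome 5 from 88268895 to 111739726 (TMEM161B-DT to STARD4-AS1), with 20 higher and 0 lower. Next were chromosome X from 48893447 to 56995827 (TIMM17B to SPIN3), at 0.88, and chromosome 6 from 26114873 to 30061640 (H2BC4 to POLR1HASP), at 0.87. The MHC class II genes lie outside that last window. Between KO2 and KO1 the medians of these 6 windows lay from -0.00 to 0.42. DNA copy number was not analysed here, and its part in these values was not tested.

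**Figure D5:**
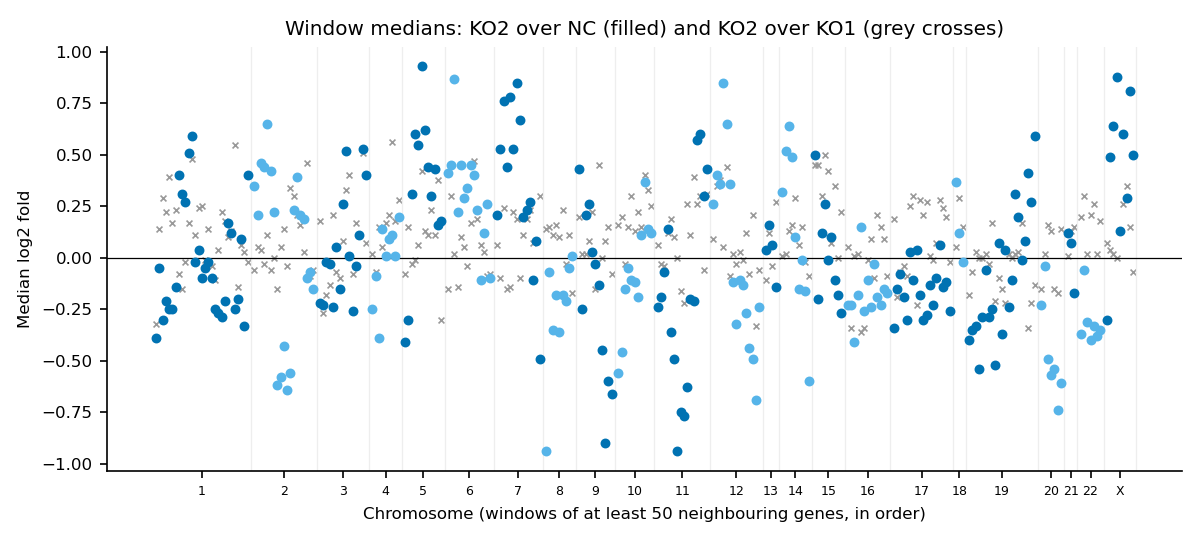
Median log2 fold of windows of 50 or more neighbouring measured genes along each chromosome (x axis, in order), for KO2 over NC (filled points, shades alternating by chromosome) and KO2 over KO1 (grey crosses). The KO2 over NC medians run from -0.94 to 0.93, and neighbouring windows on chromosomes 7, 20 and X lie mostly on 1 side of 0.

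Gene sums hid shifts between transcripts. Among 6079 genes at 20 CPM or more in both columns and under a log2 fold of 1 in size, 492 had a transcript whose share of the gene's estimated counts moved by at least 50 points. In TUBA1B, an alpha tubulin, TUBA1B-201 held 71.7% in NC, 93.3% in KO1 and 0.394% in KO2, and TUBA1B-204 held 0%, 0.0588% and 84.6%. Neither is annotated as protein-coding, TUBA1B-201 being a retained intron and TUBA1B-204 a transcript of nonsense-mediated decay. In ARF1, a GTPase of the Golgi, ARF1-213 held 82.0%, 38.4% and 0.934%, and ARF1-214 held 12.8%, 0.0334% and 94.3%. In CANX, the chaperone calnexin, CANX-201 held 98.0%, 99.0% and 35.5%. KO2 was the column apart in these 3 genes. In APLP2, a relative of the amyloid precursor protein, NC was apart, with APLP2-202 at 59.2%, 0% and 0.00866%. CCT5 and HNRNPUL1 complete the 6 most abundant such genes. How far the estimator moved whole fragments between similar transcripts cannot be told from the table.

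Overlapping genes carry the same doubt for gene sums. Of the measured genes, 2475 share an exon on the same strand with another gene. Summing each with its partners left 2852 of the 3060 calls. On the scale of the deposited TPM, 40 of 298 genes taken from the lists or the extremes lost their calls, among them SMARCD3, DPF1, ERAP2, TLR3, SPOCK1, SPRED3, MANEA, CCND2, CLSPN, CENPE, ITGA1, ITGA7, ITGB8, REL, C4A, CPT1C, SLC27A3, SLC27A4, KDR and ROBO4. Of list members named above outside that rule, COL4A2, DGAT2, F11R, GPX4 and TRIB3 were also under the size asked there, and COL4A2 and DGAT2 with the length and GC trend removed as well.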

How the data were processed

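The deposited table gives, per the file headers, estimated counts, TPM and FPKM for 199167 transcripts, with 1 column per group. The deposited counts are whole-number estimated counts, and the deposited TPM served as an alternative scale. The other 3 value columns, FPKM, were not used. The submitters' processing notes name CASAVA, Bowtie2, featureCounts and hg38 with no role or version, and the tool that made the transcript estimates is not given in the sources used here. All 3 groups matched a column by name.

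Transcript counts were summed per gene ID and scaled by TMM over the 3 columns (edgeR 4.0.16, R 4.3.3). Symbols are current ones or those of GENCODE 29, which also gave length, GC content and exons. Its position equals the deposited one for 196287 transcripts. The size rule asks for a log2 fold of at least 1 (prior count 2), an exact Clopper-Pearson 95% interval without equality, and 1 CPM or more on average over NC and KO2. It was run on simulated counts with known folds and counting error alone. That run held no variation between cultures and no error in dividing fragments among transcripts, so it could not test either. The planned edgeR fit on replicates leaves 0 residual degrees of freedom and was not run. Alternatives included DESeq2 1.42.0 size factors. The length and GC trend was a lowess curve with a span of 0.3. Python 3.11.15 was used for the rest.

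Named genes were ARID1A, the 15 highest and 15 lowest called genes by log2 fold at a mean of 5 CPM or more, the 8 largest CPM differences each way, the 8 highest and 8 lowest called against both NC and KO1 with KO1 within 1.5-fold of NC, up to 4 called members each way per list and its most abundant member, and the cell line markers. Other genes named were chosen after their values were seen. The members, the 49 gene lists and their 1425 entries were chosen with earlier results of these data known, and 2 list symbols were not matched. KO1 against NC and KO2 against NC share the control column, so their values stand side by side with no measure of overlap. Some results on single genes are not reported here.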

Additional observations from a re-analysis of the deposited data

Results flagged for a closer look

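Some named genes were called in opposite directions by the 2 columns labelled knockout, each against the same NC column. DDX3X had a log2 fold of 1.63 in KO2 and -1.12 in KO1, SPRY1 had 1.77 and -1.20, BMP4 had 1.42 and -2.04, and CLSPN had 1.15 and -2.29. The KO2 call of CLSPN was lost with the length and GC trend removed and on the scale of the deposited TPM. ADAMTS6, a metalloprotease, had -1.68 in KO2 and 1.71 in KO1, and PSAT1 had -1.94 and 1.47. Outside the naming rule, so were SLC3A2 and TRIB3, lower in KO2, and AXIN2 and F11R, higher in KO2. The KO2 calls of TRIB3, AXIN2 and F11R were each lost under another setting. Of the 14487 genes measured in KO2 against NC, 50 were called higher in KO2 and lower in KO1, and 37 the reverse. Beside these counts, 21.1% of genes were called between KO2 and NC and 32.9% between KO1 and NC. With 1 column per group the difference was not tested.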

How the results depend on the processing

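Under the main settings 1554 genes were called higher and 1506 lower. A minimum mean of 5 CPM gave 966 higher and 959 lower, no minimum mean gave 2744 and 2457, and a log2 fold of at least 1.5 gave 748 and 705. The deposited TPM gave 1180 higher and 998 lower, and 1993 of the 3060 calls were shared. The other settings left both counts within 1.5 times of the main ones, at 1475 to 1706 higher and 1272 to 1574 lower. They were total counts, DESeq2 size factors, TMM without mitochondrial genes or from KO2 and NC alone, a prior count of 0.5, and the 2 chosen after seeing the data, exon-sharing sums and removal of the length and GC trend. Similar counts do not mean the same genes. Removal of the trend left 2392 of the 3060 calls, and exon-sharing sums left 2852. No scaling moved the median of all genes by 0.1 on the log2 scale. Of 298 named genes with a value, 40 lost their calls with TPM, 38 with the trend removed, 3 with total counts and 2 with DESeq2 size factors. Summing exon-sharing genes ended 7 calls and reversed HLA-C to -0.24, IRF9 to -0.34, C2 to -0.63, SYVN1 to -0.39 and SLC27A3 to -0.42; here the alternative's own construction adds a partner gene's counts.

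No paired analysis was possible because the columns carry no replicate number, and leaving out a replicate was not run for the same reason. The intervals hold counting error alone, and how far 2 cultures of 1 genotype differ was not measured.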

Other observations

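Most of the called axon guidance genes were higher. Of 33 measured, 9 were called higher, 2 lower and 22 neither in KO2, beside 10.7% and 10.4% of all measured genes called higher and lower. The median log2 fold was 0.53, against -0.11 in KO1. ROBO1, among the 9, was below 1 CPM in NC and reached the minimum mean through KO2 alone. NEO1, a netrin receptor, was at 3.22 (NC), 8.30 (KO1) and 29.6 CPM (KO2), 9.19-fold higher (7.39 to 11.6), and SEMA3A, a secreted semaphorin, was at 3.08 (NC), 18.6 (KO1) and 27.3 CPM (KO2). EFNB2, a membrane-bound ephrin, was at 13 (NC), 52 (KO1) and 69.1 CPM (KO2), and PLXNA3, a semaphorin co-receptor, was at 25.5 (NC), 82.7 (KO1) and 103 CPM (KO2). SLIT2, the ligand of ROBO1, was at 6.23 (NC), 5.97 (KO1) and 17.2 CPM (KO2), a call not made on the scale of the deposited TPM. ROBO4 and EFNB1 were called lower.

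Immune checkpoint ligands had 3 higher, 3 lower and 12 neither of 18, beside 10.7% and 10.4% of all measured genes, shares that hold for each count here. CD274, which encodes PD-L1, was at 9.17 (NC), 73.6 (KO1) and 44.8 CPM (KO2), 4.89-fold higher (4.27 to 5.61), and VSIR, which encodes VISTA, was at 47.8 (NC), 5.75 (KO1) and 9.21 CPM (KO2). CD276 was at 64.7 (NC) and 18.9 CPM (KO2) and TNFSF9 at 223 (NC) and 82.4 CPM (KO2). Among 10 adenosine genes 1 was called higher, NT5E, and 3 lower, ADORA1, ADORA2A and ADA. BCL2 family and survival genes had 2 higher, 2 lower and 22 neither of 26, with MCL1 and BCL2L1 called neither way. Of 40 DNA damage and repair genes 3 were called higher and 3 lower, among them ATM, the kinase that senses double-strand breaks, at 10.2 (NC), 10.8 (KO1) and 31.9 CPM (KO2). With the length and GC trend removed 1 was called higher and 4 lower, and FANCM and MRE11 lost their calls. DNA methylation and Polycomb genes had 1 higher, UHRF2, which lost its call with the length and GC trend removed, and 1 lower, CBX2 at 47.5 (NC), 5.23 (KO1) and 13.7 CPM (KO2), of 31. Replication-dependent histones had 3 higher and 0 lower of 11, cancer-testis antigens 0 higher and 2 lower of 4, and S100 genes 0 called of 8.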
